A study of Mus musculus with 4 samples.

Results

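The Dlx genes are the vertebrate distal-less homeobox family, 6 genes that encode homeodomain transcription factors. Their expression was read from molar teeth of Swiss-Webster mouse pups of both sexes, taken at post-natal days 1 to 10. Teeth from 60 pups were combined into 1 RNA pool, which was hybridised to 4 Affymetrix Mouse Genome 430 2.0 arrays. On these 1-colour arrays a probe set, a group of short probes against the 3′ part of a transcript, gives 1 signal per array. All 4 arrays form 1 group, and no treatment was given. They carry the same pool, so every SD and p-value below measures technical spread and says nothing of the spread between animals, days or teeth. The control tissues that the study set against these arrays are not analysed here. The family was taken as every probe set whose platform annotation names exactly 1 of Dlx1, Dlx2, Dlx3, Dlx4, Dlx5 and Dlx6. This gave 8 of the 34945 probe sets that name a single gene, and 6 of 18193 genes. Dlx3 and Dlx4 had 2 probe sets each and the other genes 1 each.

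Dlx genes lie in the mouse genome as 3 pairs of neighbours, Dlx1 with Dlx2, Dlx3 with Dlx4, and Dlx5 with Dlx6, and the genes of a pair share enhancers. Dlx proteins bind DNA sites with a TAAT core and mostly activate transcription, while the related Msx proteins bind like sites and mostly repress. In the jaw, nested Dlx expression along the pharyngeal arches sets upper and lower jaw identity. Mice without both Dlx1 and Dlx2 lack upper molars, and mutations of human DLX3 cause tricho-dento-osseous syndrome, in which hair, enamel, dentin and bone are affected.

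Promoter sequences from RefSeq (build GRCm38.p6) were matched by symbol. They are shown for TAATT, read on both strands as TAATT or AATTA, which holds the core to which Dlx proteins bind. The genes shown were all above background on the arrays. Dlx2 is shown as a family member, and the other windows are examples that hold a match, chosen with the sequences in view. The Dlx6os1 window is the one of its 2 with more matches. Each sequence is the 250 bases before an annotated start, 5′ to 3′ on the strand of the gene, with each TAATT or AATTA in capitals. The Dlx2 window is chr2:71546755-71547004 on the minus strand. Dlx6os1, also known as Evf2, is a long non-coding RNA that is transcribed from the Dlx5 and Dlx6 locus. Its window lies between Dlx6 and Dlx5 (chr6:6869534-6869783, minus strand), a stretch that holds enhancers bound by Dlx proteins in mouse forebrain. Amelx (chrX:169187210-169187459, minus strand) and Ambn (chr5:88455741-88455990, plus strand) encode the enamel matrix proteins amelogenin and ameloblastin.
Dlx2: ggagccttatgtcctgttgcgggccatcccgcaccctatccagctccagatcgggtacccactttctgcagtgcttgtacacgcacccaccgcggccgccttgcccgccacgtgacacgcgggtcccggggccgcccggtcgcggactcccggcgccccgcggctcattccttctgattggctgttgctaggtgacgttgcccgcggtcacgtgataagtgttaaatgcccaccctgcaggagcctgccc
Dlx6os1: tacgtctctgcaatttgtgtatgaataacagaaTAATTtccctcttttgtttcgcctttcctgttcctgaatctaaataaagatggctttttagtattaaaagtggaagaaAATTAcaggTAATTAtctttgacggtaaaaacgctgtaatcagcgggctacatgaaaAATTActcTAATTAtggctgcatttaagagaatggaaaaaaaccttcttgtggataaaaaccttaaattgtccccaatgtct
Amelx: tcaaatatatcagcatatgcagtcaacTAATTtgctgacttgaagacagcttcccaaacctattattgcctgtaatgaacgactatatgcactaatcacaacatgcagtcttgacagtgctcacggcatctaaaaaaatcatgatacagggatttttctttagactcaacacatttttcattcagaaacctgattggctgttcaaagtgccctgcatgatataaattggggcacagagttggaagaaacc
Ambn: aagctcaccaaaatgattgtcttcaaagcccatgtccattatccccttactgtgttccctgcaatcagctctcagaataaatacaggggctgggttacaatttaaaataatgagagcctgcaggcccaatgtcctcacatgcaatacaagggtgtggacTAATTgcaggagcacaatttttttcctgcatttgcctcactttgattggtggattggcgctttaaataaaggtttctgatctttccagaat

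The Dlx2 window held 0 copies of TAATT and 24 CpG dinucleotides, against a median of 6 CpG over all 32851 windows. The other family member with a sequence, Dlx1, also had 0 copies of TAATT, and its window had 22 CpG. The Dlx6os1 window held 7 matches, where TAATTA counts on each strand, and only 0.107% of all windows held as many. The second annotated start of Dlx6os1 had 4 matches. Amelx and Ambn had 1 each, whereas the windows of Enam and Klk4, genes also above background, had 0. At least 1 match was present in 25% of all windows. Of the 12 tooth and bone targets that had a sequence, 7 had a match in any of their windows. The first share counts windows and the second counts genes, and some genes, such as Spp1, had more than 1 window. CpG counts of the target windows ranged from 0 in Enam to 22 in Gsc, with 2 in Amelx and 1 in Ambn. The windows were not matched for base content, so whether the targets are richer in matches was not tested. A match is a string of letters and not a measured binding site.

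All 6 Dlx genes were above background in the molar tooth pool, although Dlx6 only narrowly. Background came from 86 probe sets for olfactory, vomeronasal and taste receptors, genes that teeth are not known to use. The threshold was the 95th percentile of these signals within an array, 996, 1097, 1295 and 1266 signal units on arrays 1 to 4. A probe set had to exceed it on every one of the 4 arrays to count as above background, and a gene needed at least 1 such probe set. By this rule 8 of 8 Dlx probe sets were called, beside 35.8% of the 45037 probe sets on the array, and 42.5% of those that name 1 gene. Of genes, 6 of 6 Dlx genes were called, beside 51.6% of all named genes. Among genes with 1 probe set the share was 35.2%, and Dlx1, Dlx2, Dlx5 and Dlx6 were 4 of 4. Among genes with 2 probe sets it was 60.1%, and Dlx3 and Dlx4 were 2 of 2. The limma test of log2(signal / threshold), one-sided and adjusted by Benjamini-Hochberg over all probe sets, called 7 of 8 Dlx probe sets at 0.05, beside 35.2% of all probe sets. The exception was Dlx6. The SE given with a log2 ratio is the moderated SE of the limma fit, whose variance is drawn towards a trend over all probe sets. The median log2 ratio of the brightest probe set of a gene to the threshold was 3.21 over the 6 Dlx genes and 0.51 over all named genes.

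**Figure D1:**
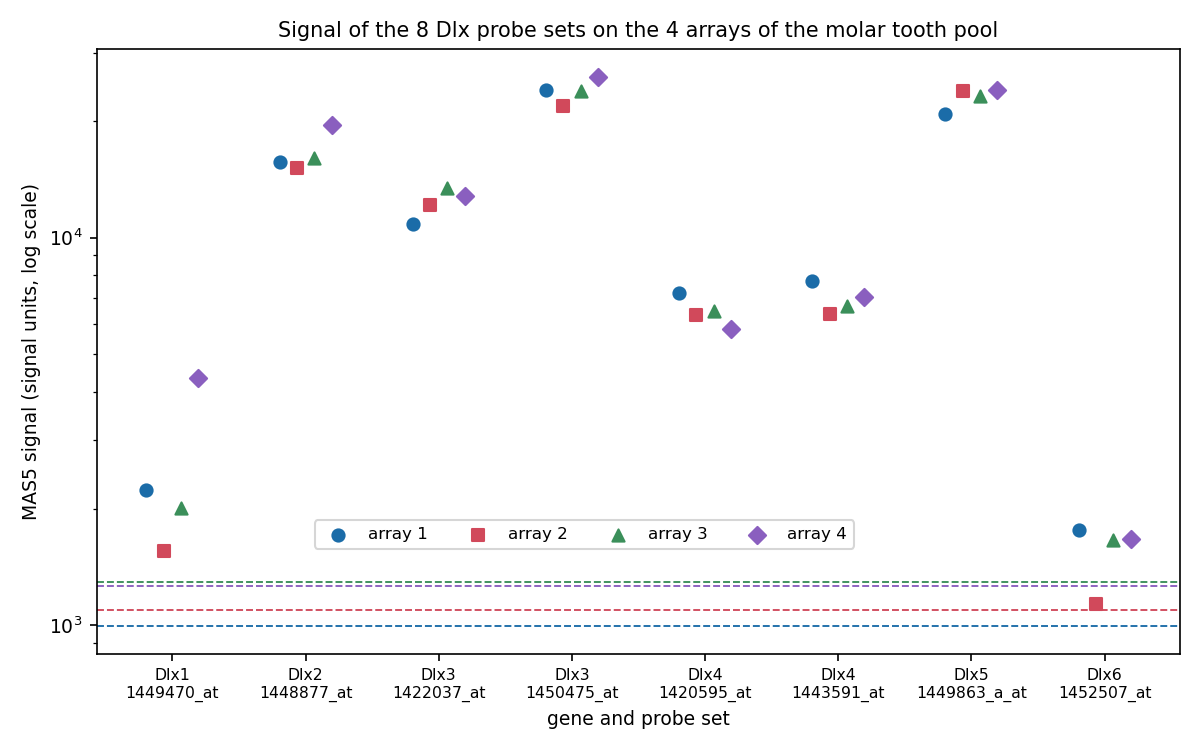
MAS5 signal (signal units, log axis) of the 8 Dlx probe sets on each of the 4 arrays, with 1 marker per array and the background threshold of each array as a dashed line of the same colour. Dlx2, Dlx3, Dlx4 and Dlx5 lie well above the lines, Dlx1 spreads from 1556 to 4348, and Dlx6 on array 2, at 1132, lies just over that array's threshold of 1097.

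Brightness also depends on the probes, so the multiples of the threshold given here measure how clearly a gene was detected and do not order the genes by mRNA amount. Because the pool mixes the cell types of the tooth, fewer cells of a type and less RNA per cell cannot be told apart.

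Dlx3, the family member most closely tied to enamel and hair, was clear of background with both of its probe sets. Probe set 1450475_at had signals of 24020, 21895, 23876 and 26012 on arrays 1 to 4. The 4 values lay close together, and each was at least 18.4 times the threshold of its array. Its log2 ratio to the threshold was 4.37 ± 0.11 (SE, n = 4 arrays; limma adjusted p = 6.98e-15). Probe set 1422037_at, annotated from the same source sequence, had 10853, 12175, 13398 and 12789. It was between 10.1 and 11.1 times the threshold, a log2 ratio of 3.41 ± 0.10 (SE, n = 4 arrays; limma adjusted p = 5.1e-14). On array 4 the first probe set had its highest value, whereas the second was highest on array 3.

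Dlx4, the neighbour of Dlx3, is the least studied member of the family and is known from the pharyngeal arches and placenta. Probe set 1443591_at had signals of 7752, 6351, 6647 and 7011, and probe set 1420595_at had 7216, 6332, 6464 and 5801. Both probe sets were above the threshold on every array, by a mean of 6.06 ± 1.18 and 5.65 ± 1.18 times (SD, n = 4 arrays), and both were highest on array 1. Their log2 ratios were 2.58 ± 0.12 and 2.48 ± 0.13 (SE; limma adjusted p = 1.28e-11 and 3.26e-11).

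Dlx5, which drives osteoblast differentiation and, with Dlx6, gives the lower jaw its identity, had signals of 20886, 23886, 23236 and 24040. Array 1 was the lowest and the other 3 arrays lay close together. The log2 ratio to the threshold was 4.31 ± 0.11 (SE, n = 4 arrays; limma adjusted p = 6.27e-15), a mean of 19.9 ± 1.76 times the threshold (SD). Its only probe set carries the suffix _a_at, which marks sequence shared by transcripts of 1 gene.

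Dlx6, the partner of Dlx5, stood at the edge of detection. Its signals were 1761, 1132, 1659 and 1667, which were 1.77, 1.03, 1.28 and 1.32 times the thresholds of arrays 1 to 4. Array 2 was low while the other 3 arrays lay between 1659 and 1761. The log2 ratio was 0.41 ± 0.19 (SE, n = 4 arrays), and the limma adjusted p of 0.0652 missed the threshold of 0.05. Without array 2 the log2 ratio was 0.53 (limma adjusted p = 0.0426). Without array 1, 3 or 4 it was 0.27, 0.42 or 0.41, and the limma adjusted p was 0.276, 0.13 or 0.101. With the 99th percentile of the same receptor probe sets as background, or with testis and retina probe sets, Dlx6 was not above background, because its signal on array 2 lay below thresholds of 1471 and 1548. The other 5 Dlx genes passed under both, though Dlx1 only just on array 2, beside 48.2% and 48.8% of all named genes. The call for Dlx6 thus rests on the choice of background, and a signal this close to the threshold does not separate weak expression from none.

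Dlx2, which acts with Dlx1 in upper molar development and in forebrain interneurons, had signals of 15640, 15160, 16100 and 19524. Array 4 was the highest, and the other 3 arrays lay within 15160 to 16100. Its log2 ratio to the threshold was 3.84 ± 0.11 (SE, n = 4 arrays; limma adjusted p = 2.21e-14), a mean of 14.3 ± 1.52 times the threshold (SD).

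Dlx1 had signals of 2238, 1556, 2005 and 4348, so array 4 was well above the other 3. It exceeded the threshold on every array, by 2.25, 1.42, 1.55 and 3.43 times. The log2 ratio was 1.02 ± 0.19 (moderated SE, n = 4 arrays; limma adjusted p = 0.000181). The SD of its log2 signal, 0.63, was much wider than that of like probe sets. This SE and p therefore rest on a variance drawn towards the trend, below that of the 4 values themselves. Without array 4 the log2 ratio was 0.77 (limma adjusted p = 0.00117). Dlx1 was also above background with the 99th percentile (limma adjusted p = 0.00425) and with the testis and retina background (limma adjusted p = 0.00955). On array 2, however, its signal of 1556 lay only just over those thresholds, 1471 and 1548.

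The spread between arrays was close to that of other probe sets of like brightness for 7 of the 8 Dlx probe sets, and much wider for Dlx1. The SD of log2 signal over the 4 arrays was 0.63 for Dlx1, compared with a median of 0.22 among the 500 probe sets nearest in mean signal, and it exceeded 99.4% of them. For Dlx6 the SD was 0.29, against a median of 0.27 among its 500 nearest probe sets. For Dlx2, Dlx3, Dlx4 and Dlx5 it was between 0.09 and 0.16, and these values exceeded between 31.8% and 69.4% of the probe sets nearest to each. Quantile normalisation, which gives all arrays the same distribution of signals, left the Dlx1 values at 2190, 1517, 1961 and 4364, with an SD of 0.65. The high value of Dlx1 on array 4 was therefore as large after that scaling. Of the 8 probe sets, 5 had their lowest signal on array 2 and 4 their highest on array 4. Across the 16113 probe sets above background, the 6 pairs of arrays correlated with a Pearson's r of 0.97 to 0.98, where probe sets are not independent replicates.

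**Figure D2:**
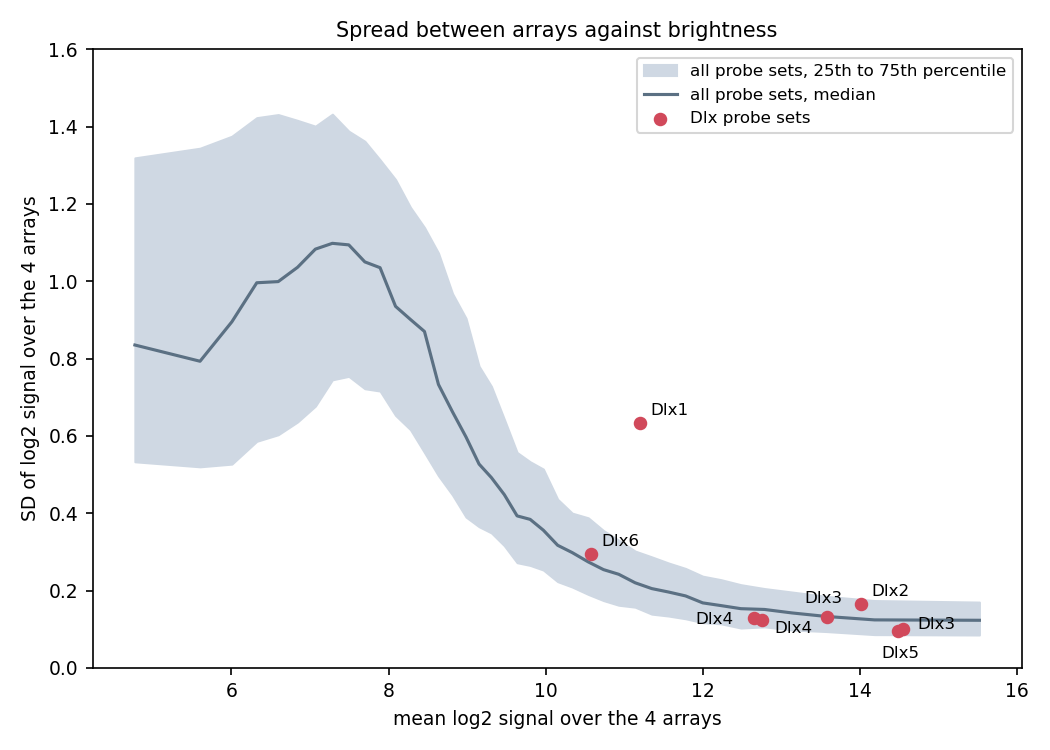
SD of log2 signal over the 4 arrays against mean log2 signal. The line and band give the median and the 25th to 75th percentile of all probe sets in 40 bins of brightness, and red points are the 8 Dlx probe sets. Dlx1, at an SD of 0.63, lies far above the band, while Dlx6 (0.29) and the brighter Dlx probe sets lie in or near it.

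Non-coding RNAs annotated from the Dlx loci differed from one another. Dlx6os1 had signals of 5844, 4731, 5255 and 4245, a mean of 4.4 ± 1.06 times the threshold (SD, n = 4 arrays; limma adjusted p = 6.64e-10). It was above background on all 4 arrays. Dlx4os, which overlaps the Dlx4 gene, had 4884, 4094, 4223 and 5905, a mean of 4.14 ± 0.77 times the threshold (limma adjusted p = 6.07e-10), and was also above background. Dlx1as, annotated as antisense to Dlx1, had 1465, 1076, 993 and 1276 and passed on 2 of 4 arrays (limma adjusted p = 1). Dlx6os2, added after its values had been seen, had 151, 152, 193 and 171 and passed on 0 arrays. Whether each probe set reads the strand its name implies was not tested.

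Genes that border the 3 pairs were also read, taking the 2 nearest on each side that had a probe set naming them alone. Of these 12 neighbours, 9 were above background, beside 51.6% of all named genes. Next to Dlx1 and Dlx2, the integrin gene Itga6 had a mean of 22.8 ± 6.03 times the threshold (SD, n = 4 arrays), the histone acetyltransferase gene Hat1 3.82 ± 0.68 and Metap1d, a mitochondrial methionine aminopeptidase gene, 1.40 ± 0.33, while Gm17250 was at 0.101 times. Next to Dlx3 and Dlx4, the integrin gene Itga3 had 10.3 ± 2.34 and the pyruvate dehydrogenase kinase gene Pdk2 3.94 ± 0.96. On the other side of that pair Gm11515 and the tachykinin gene Tac4 passed on 0 arrays. Next to Dlx5 and Dlx6, the proteasome subunit gene Sem1 had 26.2 ± 4.6, the tachykinin gene Tac1 2.46 ± 0.65, Sdhaf3, an assembly factor gene for succinate dehydrogenase, 1.58 ± 0.22 and the mitochondrial carrier gene Slc25a13 1.56 ± 0.30. Signal above background was thus present on both sides of the Dlx1 and Dlx2 pair and of the Dlx5 and Dlx6 pair, and on 1 side of the Dlx3 and Dlx4 pair. For Metap1d, Sdhaf3 and Tac1 only 1 of 2 probe sets passed, and Sdhaf3 and Tac1 are the genes on 1 side of Dlx5 and Dlx6. With the 99th percentile as background 8 of the 12 neighbours passed, beside 48.2% of all named genes.

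**Figure D3:**
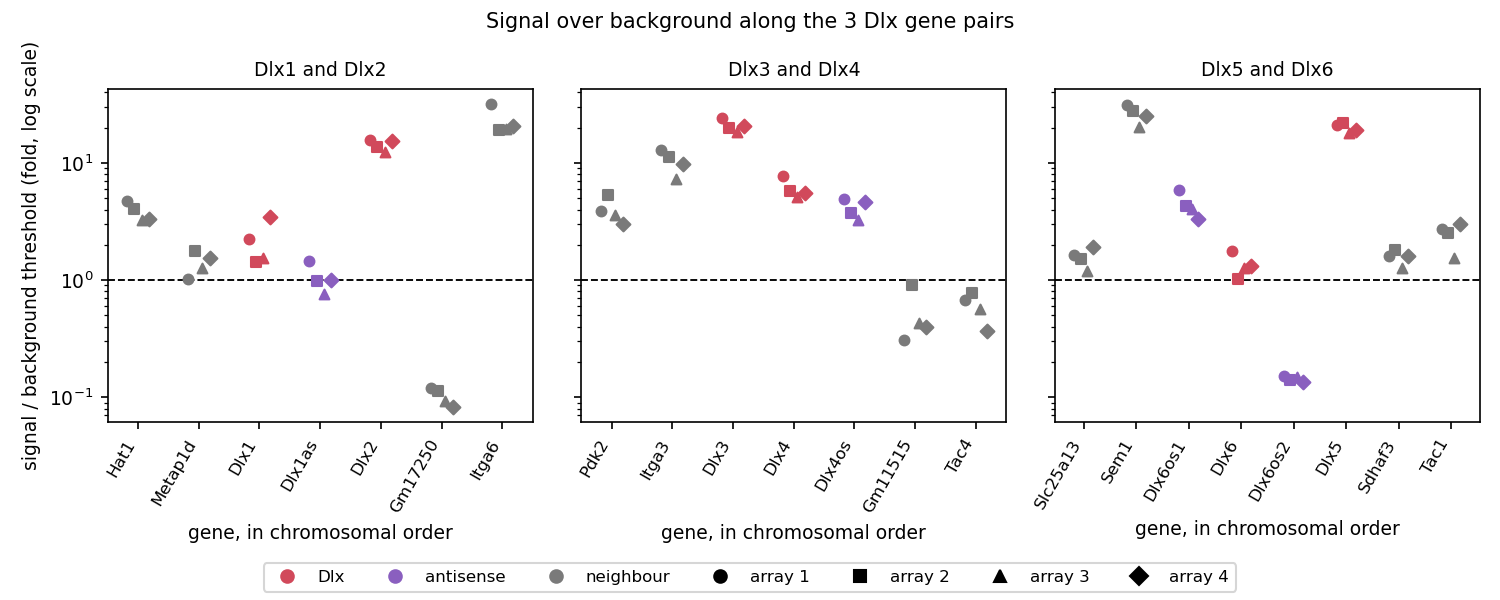
Signal divided by the background threshold of the same array (fold, log axis) for the genes of each Dlx pair, the non-coding RNAs annotated there and the 2 nearest measured neighbours on each side, in chromosomal order (not to scale). Each marker is 1 array and the dashed line is the threshold. Within each pair the Dlx genes differ in their margin, at 2.16 and 14.3 times for Dlx1 and Dlx2, 20.8 and 6.06 times for Dlx3 and Dlx4, and 19.9 and 1.35 times for Dlx5 and Dlx6.

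Most other homeobox genes of the NKL class, to which the Dlx family belongs, were not above background. The 6 of 6 Dlx genes stand beside 4 of 34 measured NKL genes (11.8%) and 51.6% of all named genes. The median log2 ratio to the threshold was 3.21 for Dlx and -1.64 for the other NKL genes. The 4 that passed were Msx1 and Msx2, whose proteins pair with Dlx proteins, Barx1, a homeobox gene of the molar field, and Tlx2, known from the neural crest. Msx2 had signals of 18413, 20401, 19618 and 22244, Msx1 9461, 9800, 10862 and 8180, and Barx1 9352, 8844, 9392 and 10573. Each of these was several times its threshold on every array, though for Msx2 only 1 of 2 probe sets passed. Tlx2 was closer, at 1.66 ± 0.21 times (SD, n = 4 arrays; limma adjusted p = 0.000668). The remaining 30 measured genes included Barx2 at 96.2 ± 38.1, Hhex at 1137 ± 310 and Nkx2-3 at 1085 ± 82.5 signal units (SD, n = 4 arrays). Bsx and Noto are not analysed here. With the 75th percentile of the receptor probe sets as background, 9 of the 34 passed, beside 65.3% of all named genes.

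Regulators of Dlx expression were above background for 7 of 9 measured genes, beside 51.6% of all named genes. Trp63, an epithelial transcription factor that activates Dlx genes in ectoderm, had signals of 37265, 22398, 25563 and 21805, with array 1 well above the other 3. The bone morphogenetic protein ligands Bmp2, Bmp4 and Bmp7, which induce Dlx genes in several tissues, had means of 6.26 ± 1.65, 9.84 ± 0.69 and 9.35 ± 1.54 times the threshold (SD, n = 4 arrays). Their receptor gene Bmpr1a had 10.8 ± 1.34 times, and the signal transducer genes Smad1 and Smad5 had 8.09 ± 1.71 and 7.49 ± 0.64 times. The ligand genes Fgf8 and Edn1, which act upstream of Dlx genes in the early jaw, had 31.7 ± 10.3 and 123 ± 92.9 signal units and passed on 0 arrays. Ednra is not analysed here.

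Genes for proteins that bind Dlx proteins were above background for 5 of 6 members, beside 51.6% of all named genes. Besides Msx1 and Msx2, they were Maged1, also called Dlxin-1, with 20626, 19040, 21456 and 22958 signal units, Smad4 with 11135, 13534, 12490 and 15102, and Ndn (necdin), a relative of Maged1, with 9997, 10993, 10562 and 9314. Each of these 5 genes passed the limma test as well, as did 50.9% of all named genes. Grip1, a scaffold gene, had 535, 1572, 847 and 636 and passed on 1 array, array 2. Its 4 values lay on both sides of the thresholds.

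Targets reported for Dlx proteins were called for 9 of 11 measured tooth and bone genes and for 2 of 8 measured genes of other tissues, beside 51.6% of all named genes. Amelx, Ambn, Enam, Klk4, Odam, Dspp, Sp7 and Ibsp are also in the marker lists read below, so the counts overlap. The lists were split by tissue, so in a molar pool their counts do not bear on Dlx action, which was not tested. The enamel matrix genes Amelx, Ambn and Enam were at means of 171, 144 and 122 times the threshold, and Odam and Klk4, of enamel maturation, at 43.4 and 19.6 times. For Enam only 1 of 2 probe sets passed. Dspp, the main non-collagenous gene of dentin, was at 96 times. The mineralisation genes Alpl and Ibsp were at 45.6 and 21.1 times, and Sp7, an osteoblast transcription factor, at 8.15 times. Amelx had signals of 149117, 217581, 181018 and 246949, with array 1 the lowest and array 4 the highest. Gsc and Hand2, jaw patterning genes downstream of Dlx5 and Dlx6 in the embryo, had 519 ± 351 and 456 ± 291 signal units (SD, n = 4 arrays) and passed on 0 arrays. The signals of Runx2, Spp1 and Bglap are not analysed here, and only their promoter windows were read.

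Of the targets listed under brain, hair, limb or placenta, Nrp2, a semaphorin receptor, was at 3.66 ± 0.72 times the threshold and Lef1, a Wnt effector, at 1.88 ± 0.37 times (SD, n = 4 arrays; limma adjusted p = 3.12e-09 and 0.000108). Only 1 of 2 probe sets passed for Lef1, and 3 of 4 for Nrp2. The listing does not mean that these genes are absent from teeth. Gad1, the enzyme of GABA synthesis, had 1509, 1319, 1316 and 951 and passed on 3 of 4 arrays. Without array 4, or with the 75th percentile as background, 3 of the 8 genes passed, beside 54.1% and 65.3% of all named genes. Gad2, Hoxc13, Esx1, Cga and Pgf passed on 0 arrays, with means between 204 and 385 signal units.

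**Figure D4:**
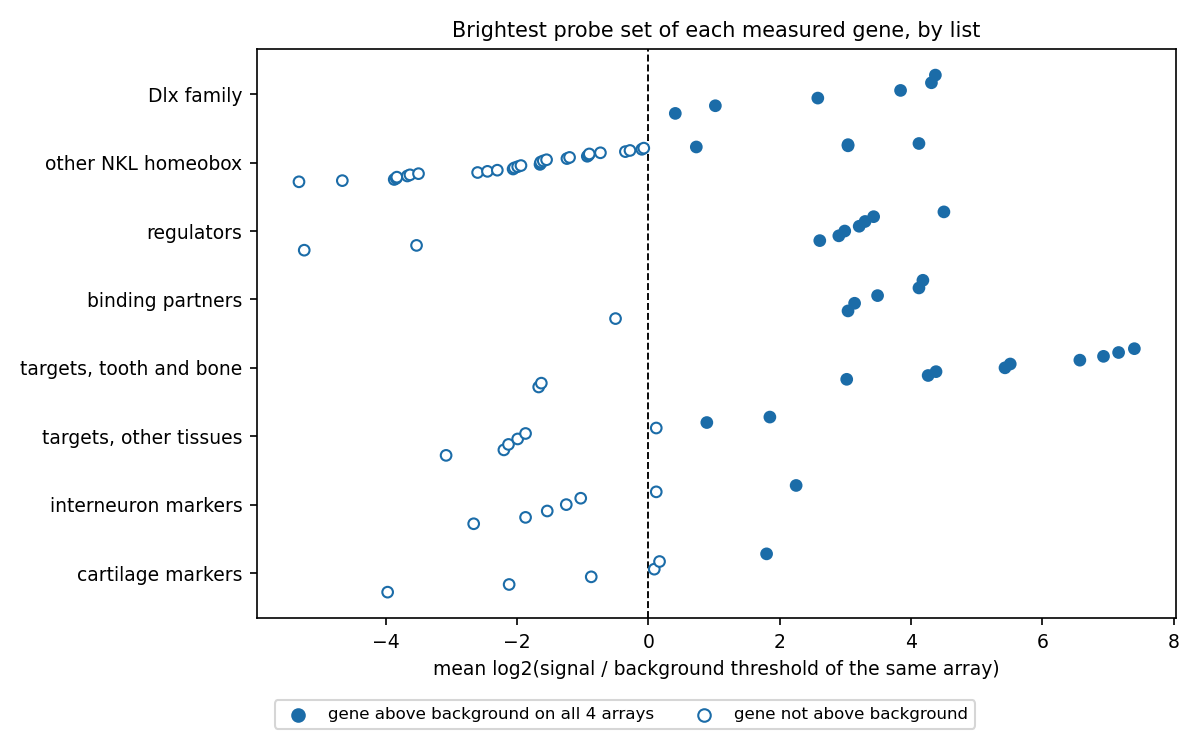
Mean log2 ratio of signal to the background threshold of the same array, for the brightest probe set of each measured gene (1 point per gene), by list. Filled points are genes above background on all 4 arrays, open points are genes that were not, and the dashed line is the threshold. All 6 Dlx points are filled, against 4 of 34 for the other NKL homeobox genes.

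Markers of cells in which Dlx genes are also known were read from the same arrays. The counts in these lists stand beside 51.6% of all named genes above background by the same rule. Ameloblast markers were above background for 7 of 7 genes. Odontoblast markers, namely Dspp, Dmp1, Phex, Nes and Cd24a, were above background for 5 of 5. Phex is also counted in the osteoblast list below. Whether these signals come from odontoblasts alone was not tested. Of 6 epidermal markers 5 passed, beside the same 51.6%. Krt1 had 8357, 7287, 8758 and 8599 signal units and Lor 20875, 21785, 15721 and 17088. Krt10, Krt5 and Krt14 were at means of 8.35, 102 and 73.2 times the threshold. Flg, with 1796, 1319, 1296 and 714, passed on 3 of 4 arrays and was not called. Without array 4, or with the 75th percentile as background, all 6 epidermal markers passed, beside 54.1% and 65.3% of all named genes. Krt1 and Lor are made by skin and by keratinised oral epithelium. Osteoblast markers passed for 3 of 5, a share of 60% that is near the 51.6% of all named genes. They were Sp7, Ibsp and Phex, which odontoblasts also express. Sost and Mepe, of later bone cells, passed on 0 arrays. Cartilage markers passed for 1 of 6, beside 51.6%, namely Col2a1 at 3.60 ± 0.96 times the threshold (SD, n = 4 arrays). Forebrain interneuron markers passed for 1 of 7, beside 51.6%, namely Lhx6 at 4.77 ± 0.14 times, a gene also known from oral mesenchyme. Gad2, Slc32a1, Npy, Sst and Pvalb passed on 0 arrays, and without array 4 Gad1 passed as well, which made 2 of 7, beside 54.1% of all named genes without that array. How much each of these cell types contributed to the Dlx signals was not tested.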

How the data were processed

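The values are intensities on a linear scale, 1 for each probe set on each array, which the authors made with MAS5, per the submitters' processing notes. The MAS5 version and settings, whether detection calls were made, and how the pool was divided for labelling are not stated in the sources used here. The deposited intensity values had a mean of 2500 on each array once the lowest and highest 2% were trimmed, so the arrays share 1 scaling target. MAS5 takes off a mismatch estimate, and the spread between arrays was wider for dim signals. Whether the first accounts for the second was not tested. Depth in the sense of reads does not exist for arrays, and their number limits the precision.

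Of 45101 probe sets, 64 controls were left out, 34945 named 1 gene, 932 named several and 9160 had no name here. The gene IDs of all 8 Dlx probe sets matched the reference gene table. The background threshold, the calls on all 4 arrays and the limma 3.58.1 fit (intercept only, mean-variance trend, R 4.3.3) were computed on all probe sets. The calls and the fit were also run on simulated data. There, of probe sets set at 1.5 times the threshold, the all-array rule called 84% and limma 42%. The simulation set all other probe sets clearly under the threshold, so it could not test false calls near it. A gene's value is that of its brightest probe set by mean log2 signal. Its other probe sets need not have passed, as for Bmpr1a, where 4 of 6 did. The members and lists were chosen with earlier results of these data known, and the lists come from general knowledge. All Dlx probe sets, any list member and the 2 measured neighbours on each side of a pair could be named. No gene was named for a pattern like that of a Dlx gene, because 1 pool holds no conditions. Alternatives were other background percentiles and sets, quantile normalisation, 3 of 4 arrays, probe sets without the suffixes _s_at, _x_at and _a_at, calls that need most of a gene's probe sets, limma without trend, and leaving out each array.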

Additional observations from a re-analysis of the deposited data

Results flagged for a closer look

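A gap test was run on the log2 signals of 58 probe sets, and 7 had a single array that stood apart. The 58 were those of the Dlx genes, non-coding RNAs, regulators, binding partners, both target lists and neighbours. The other NKL genes and the cell type markers were not tested, except where they are also in those lists. Chance alone picks out roughly 1 in 20, here 2.9 of 58. Dlx6 was low on array 2 (10.15, others 10.70 to 10.78), which bears on its call. Dlx1 was not among the 7, since its 3 lower arrays were themselves spread. Among the regulators, Smad1 was low on array 3 (12.90, others 13.24 to 13.27), and Fgf8, below background, was high on array 3 (5.56, others 4.70 to 4.80). Among the targets of other tissues, Nrp2 was low on array 4 (11.79, others 12.09 to 12.11), as was Lef1 (10.86, others 11.11 to 11.16). Of the neighbours, Itga3 was low on array 3 (13.20, others 13.58 to 13.64) and Slc25a13 was high on array 4 (11.24, others 10.59 to 10.70).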

How the results depend on the processing

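The count of Dlx probe sets above background was 7 or 8 and that of Dlx genes 5 or 6 under every alternative run. Dlx6 was the gene lost with the 99th percentile, with testis and retina probe sets, and by limma. Dlx5 was not measured without the suffixed probe sets, where 5 of 5 genes passed. By limma, Dlx6 passed with the 75th percentile (log2 ratio 1.62, adjusted p = 1.33e-06) and without array 2, and its adjusted p ranged from 1.33e-06 to 0.689 over 8 alternatives. The other 7 Dlx probe sets passed limma in all 8. With the 75th percentile, 9 other NKL genes, 2 interneuron markers and 3 cartilage markers were above background, a threshold that 65.3% of all named genes passed. Leaving out 1 array gave 1 or 2 interneuron markers, 5 or 6 epidermal markers and 2 or 3 targets of other tissues. The share of all named genes was then 51.8% to 54.1%. The median SD of the Dlx probe sets was 0.14 after quantile normalisation and 0.10 to 0.15 with 1 array left out, against 0.13 with all arrays. No paired analysis was possible because the 4 arrays form 1 group.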
